A study of Drosophila melanogaster with 36 samples.

Results

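The Wnt ligand genes are 6 of the 17807 genes counted in RNA from sorted wing and haltere imaginal disc cells of Drosophila melanogaster: wg, Wnt4, Wnt6, Wnt10, Wnt2 and Wnt5. They were taken by name, as the genes of secreted Wnt proteins that the count tables list under these symbols, and all 6 were among the 11198 genes kept for testing. Both discs are epithelial sacs of the larva. One gives rise to the wing, the other to the haltere, a small balancing organ. The 8 libraries fall into 4 groups of 2. Haltere nub and wing nub cells carried the driver nub.gal4, which works in the future appendage (the distal domain), in a yw background. Haltere tsh and wing tsh cells carried tsh.gal4, which works in the body wall and hinge (the proximal domain), in the same background. Every group carried uas-kash.GFP, which marks the nuclear envelope for sorting, and came from L3 larvae kept at 25 °C until the wandering stage. Each sort holds all cells in which a driver is active, so it mixes regions of the disc, and distal and proximal cells come from different driver lines, which cannot be told apart from the domains.

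Wnt proteins are lipid-modified signals that leave the producing cell with the help of the transmembrane protein Wntless. On the receiving cell they bind Frizzled receptors together with the co-receptor Arrow, which stabilises the β-catenin Armadillo and changes transcription through the factor Pangolin. In the wing disc wg is known for its stripe along the future wing margin, its rings around the pouch in the hinge and a band in the notum, and it patterns and sustains growth of the appendage. Wnt5 instead is known for signalling through the Ryk receptor Derailed in axon guidance.

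The genes wg, Wnt4, Wnt6 and Wnt10 lie beside each other on chromosome arm 2L. In Release 6 coordinates their annotated spans run from 7255419 to 7277171 for Wnt4, from 7307159 to 7316265 for wg, from 7333714 to 7352542 for Wnt6 and from 7363379 to 7377528 for Wnt10. The whole stretch is 122.1 kb, with gaps of 30 kb, 17.4 kb and 10.8 kb between neighbours. Wnt2 lies on 2R (9494166 to 9503188) and Wnt5 on the X chromosome (18501401 to 18505405).

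The labels were checked on the selector and driver genes. Ubx, the haltere Hox gene, lay between 768 and 2750 CPM (read counts scaled to library depth by the TMM method) in the haltere libraries and between 2.05 and 37.1 CPM in the wing libraries. The gene nub was at 1035 CPM or more in every nub library and at most 38.7 CPM in every tsh library, and tsh was at most 29.5 CPM in nub and at 689 CPM or more in tsh libraries. Totals lay between 15110163 and 17705451 counts except in the haltere nub libraries, which had 96525031 and 92342738, so depth cannot be told apart from tissue in comparisons with them. Wing tsh replicate 1 stood apart, with 5186 genes between 1 and 5 CPM against 1822 to 2312 in the other libraries. The other cell types have marker lists of their own. Across libraries these summed to 354 to 542 CPM for the 8 myoblast genes and 990 to 2444 CPM for the 6 tracheal genes matched. The 12 neuron or glia genes summed to 1244 to 1443 CPM. A few genes carried much of these sums, with group means of 232 to 298 CPM for Ama, 110 to 1480.5 for vvl, 369 to 620 for serp and 643 to 817 for Gli. Others were low, with group means of 0.870 to 10.25 CPM for twi, 1.17 to 17.2 for btl and 0.476 to 1.47 for repo. The sums are therefore no measure of how many such cells a library held. The 8 hemocyte genes summed to 4.05 to 36.4 CPM and the 6 fat body genes to 3.10 to 55.6 CPM, with both highest values in wing tsh replicate 1. He was at 0 counts in haltere tsh cells, and Lsp2 in haltere tsh and wing nub cells.

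**Figure D1:**
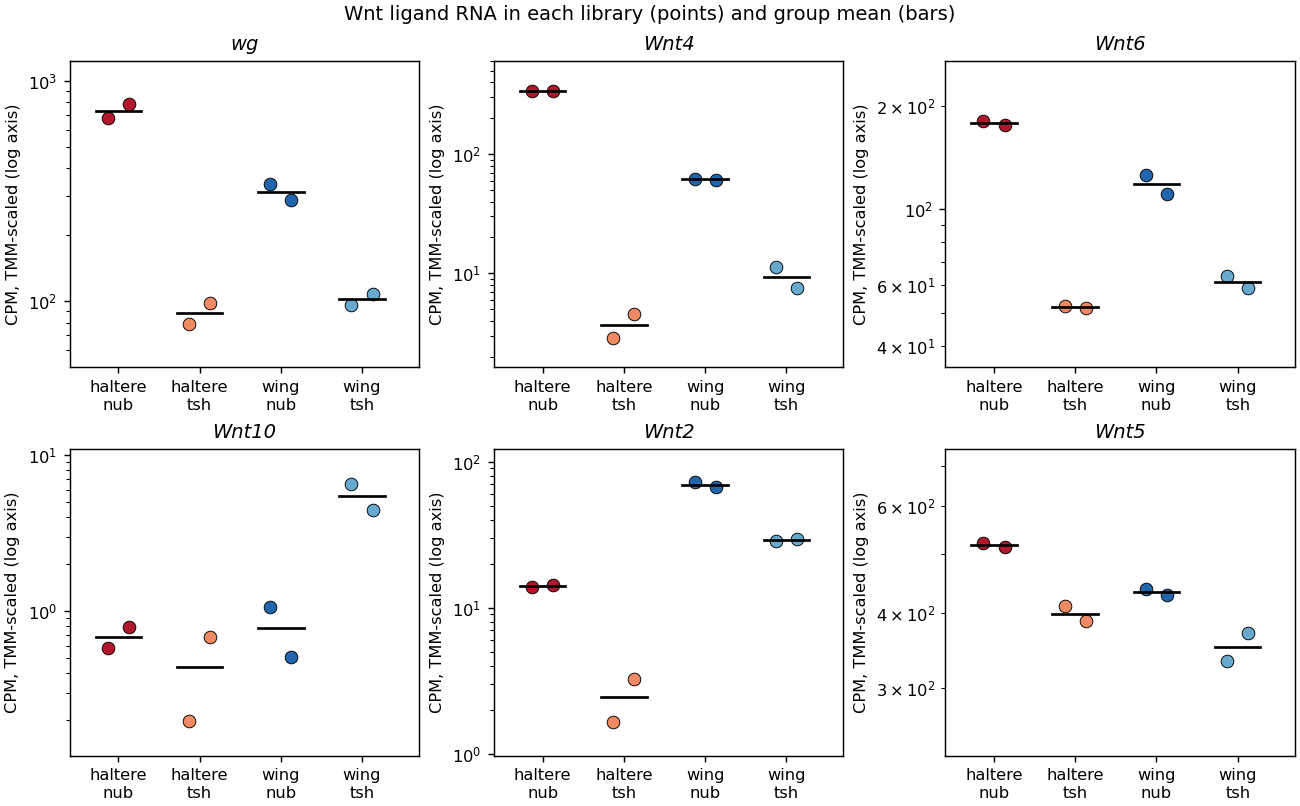
RNA level of each Wnt ligand gene in every library, in TMM-scaled CPM on log axes, with replicates 1 and 2 as points from left to right and the group mean as a bar. The genes wg, Wnt4 and Wnt6 are highest in haltere nub cells, Wnt10 stands at 6.56 and 4.43 CPM in wing tsh cells and at 1.06 CPM or less elsewhere, Wnt2 is highest in wing nub cells, and Wnt5 spans only 333 to 521 CPM.

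The gene wg was highest in haltere nub cells. It stood at 675 and 781 CPM in haltere nub replicates 1 and 2, at 78.6 and 97.8 CPM in haltere tsh, at 339 and 287 CPM in wing nub and at 96.1 and 108 CPM in wing tsh cells. The nub libraries lay above the tsh libraries in both discs with no overlap, while the tsh libraries of the discs overlapped. The group means were 728 ± 75.1, 88.2 ± 13.6, 313 ± 36.6 and 102 ± 8.20 CPM in that order (SD, n = 2 each). In nub cells wg was 2.32-fold higher in the haltere than in the wing (log2 fold change 1.22 ± 0.13 SE, adjusted p = 6.78e-05, edgeR). Within the haltere disc it was 8.25-fold higher in nub than in tsh cells (3.04 ± 0.14, adjusted p = 3.35e-08, edgeR), and within the wing disc 3.07-fold higher (1.62 ± 0.13, adjusted p = 6.09e-06, edgeR). Between haltere tsh and wing tsh cells, the lowest neighbours in the order of levels, the log2 difference of -0.21 ± 0.13 was not called (adjusted p = 0.425, edgeR). In bulk libraries such as these, fewer cells making an RNA and less RNA per cell cannot be told apart.

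Wnt4, which has been described in disc cells that overlap those of wg, had the widest range of the 6 genes. Its levels were 338 and 335 CPM in haltere nub, 2.89 and 4.56 CPM in haltere tsh, 62.0 and 60.6 CPM in wing nub and 11.2 and 7.48 CPM in wing tsh libraries. Levels of the groups did not overlap. The order of the means was haltere nub (337 ± 2.47), wing nub (61.3 ± 0.997), wing tsh (9.35 ± 2.64) and haltere tsh (3.73 ± 1.18 CPM), and each step in it passed the test. Nub cells of the haltere had 5.50-fold more Wnt4 RNA than those of the wing (2.46 ± 0.15, adjusted p = 2.21e-06, edgeR). Tsh cells of the haltere had 2.48-fold less than those of the wing (-1.31 ± 0.23, adjusted p = 0.00985, edgeR). The nub level exceeded the tsh level 89.2-fold in the haltere disc (6.48 ± 0.20, adjusted p = 3.84e-09, edgeR) and 6.54-fold in the wing disc (2.71 ± 0.17, adjusted p = 1.54e-06).

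The difference between the tsh groups rests on 44 and 80 Wnt4 counts in haltere tsh and 183 and 120 in wing tsh libraries. Its call was lost without haltere tsh replicate 1 (-1.04, adjusted p = 0.0919, edgeR) and when only these 4 libraries were fitted (adjusted p = 0.0922). The 5 distal marker genes nub, vg, rn, dve and nab summed to 133 to 149 CPM in haltere tsh cells and 228 to 244 CPM in wing tsh cells, and their part in this result was not tested.

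Wnt6, whose expression in the wing disc has been described as like that of wg, followed the same order with smaller steps. It was measured at 181 and 176 CPM in haltere nub, 52.3 and 51.6 CPM in haltere tsh, 126 and 111 CPM in wing nub and 63.9 and 58.8 CPM in wing tsh libraries. The replicates were close and no group overlapped another. Haltere nub cells had 1.51-fold more than wing nub cells (0.59 ± 0.09, adjusted p = 0.000715, edgeR). The nub level was above the tsh level 3.43-fold in the haltere disc (1.78 ± 0.09) and 1.93-fold in the wing disc (0.95 ± 0.09), and both were called. Haltere tsh and wing tsh cells, at 52.0 ± 0.530 and 61.3 ± 3.60 CPM (SD, n = 2 each), were not called different (-0.24 ± 0.09, adjusted p = 0.208, edgeR).

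Wnt10, the last gene of the row, behaved in another way and was rare. It had 57 and 73 counts in haltere nub, 3 and 12 in haltere tsh, 18 and 9 in wing nub and 107 and 71 in wing tsh libraries. In CPM these are 0.581 and 0.791, 0.197 and 0.684, 1.06 and 0.507, and 6.56 and 4.43. Only the wing tsh libraries stood apart, and the other 3 groups overlapped and were not called different from each other. Haltere tsh cells had 12.2-fold less Wnt10 RNA than wing tsh cells (-3.61 ± 0.72, adjusted p = 0.018, edgeR), and wing nub cells 7.02-fold less than wing tsh cells (-2.81 ± 0.68, adjusted p = 0.0168, edgeR). The first of these calls was lost without haltere tsh replicate 1 (-3.00, adjusted p = 0.16), and the value was -4.78 without haltere tsh replicate 2. The second was lost without wing nub replicate 1 (-3.43, adjusted p = 0.058) or replicate 2 (-2.38, adjusted p = 0.128).

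Since low genes were raised in wing tsh replicate 1, Wnt10 was also fitted without it. The log2 fold changes were then -3.29 for haltere tsh against wing tsh (adjusted p = 0.0158) and -2.50 for wing nub against wing tsh (adjusted p = 0.0213, edgeR). Some genes of myoblasts, the muscle precursors that lie on the notum epithelium, were also high in wing tsh cells. On group means 6 of the 8 were highest there, while kirre and Mef2 were highest in haltere nub cells, and the sums of haltere nub (481 to 501.5 CPM) and wing tsh libraries overlapped. The mesodermal factor gene twi stood at 3.62 and 3.42 CPM in haltere tsh and 12.0 and 8.54 CPM in wing tsh libraries, and at 1.47 CPM or less in nub libraries. Of the 8 myoblast genes 5 were lower in haltere tsh than in wing tsh cells, beside 2.22% of all tested genes. The list summed to 353.7 to 391.9 against 498.5 to 542.2 CPM. In the wing disc 5 were lower in nub than in tsh cells and 1, kirre, was higher, beside 7.88% and 5.96% of all tested genes. None of the 8 was at 0 counts in any group. The fat body genes summed to 4.34 to 5.25 CPM in haltere tsh and 19.9 to 55.6 CPM in wing tsh libraries, with Lsp2 at 0 in haltere tsh cells. The part of these cell types in the Wnt10 levels was not tested.

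Outside the row, Wnt2 was the one ligand gene called lower in the haltere in both domains. Known for its role in the male reproductive tract, it stood at 13.9 and 14.3 CPM in haltere nub, 1.64 and 3.25 CPM in haltere tsh, 72.0 and 67.1 CPM in wing nub and 28.8 and 29.7 CPM in wing tsh libraries. No group overlapped another, and all 3 steps of the order wing nub, wing tsh, haltere nub, haltere tsh passed the test. Haltere nub cells had 4.93-fold less than wing nub cells (-2.30 ± 0.15, adjusted p = 1.46e-06, edgeR). Haltere tsh cells had 11.7-fold less than wing tsh cells (-3.55 ± 0.20, adjusted p = 1.67e-06, edgeR). Within a disc nub cells had more Wnt2 RNA than tsh cells, 5.66-fold in the haltere (2.50 ± 0.20) and 2.38-fold in the wing (1.25 ± 0.15). The haltere tsh value rests on 25 and 57 counts, and without haltere tsh replicate 2 the tsh difference between discs was -4.15 and the domain difference in the haltere 3.10, both still called. The tracheal genes summed to 1275 to 1383 CPM in haltere nub and 2305 to 2444 CPM in wing nub libraries, and none was at 0 counts in any group. Of the 6, vvl and trh were lower in haltere nub than in wing nub cells (13.6% of all tested genes) and btl higher (9.72%). The median of the 6 tracheal genes was -0.02. The part of the tracheal genes in the Wnt2 difference was not tested.

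Wnt5 varied least. Its levels were 521 and 515 CPM in haltere nub, 410.4 and 387 CPM in haltere tsh, 438 and 428 CPM in wing nub and 333 and 371 CPM in wing tsh libraries. The groups did not overlap, with haltere nub libraries highest, but the steps were small. The fold was 1.20 for haltere nub against wing nub (0.26 ± 0.08, adjusted p = 0.0479, edgeR), 1.30 for haltere nub against haltere tsh (0.38 ± 0.08, adjusted p = 0.00739) and 1.23 for wing nub against wing tsh (0.30 ± 0.09, adjusted p = 0.0374). Wing nub and haltere tsh cells (adjusted p = 0.447), and haltere tsh and wing tsh cells (adjusted p = 0.289, edgeR), are neighbours in the order that were not called different. The first call was lost without either haltere tsh library, either haltere nub library or wing nub replicate 1, with adjusted p between 0.0556 and 0.157 and values of 0.26 to 0.36. The second was lost without haltere tsh replicate 2 (0.34, adjusted p = 0.0782). The third was lost without either haltere tsh library, either wing nub library or wing tsh replicate 1, with adjusted p between 0.0682 and 0.18 and values of 0.22 to 0.31.

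**Figure D2:**
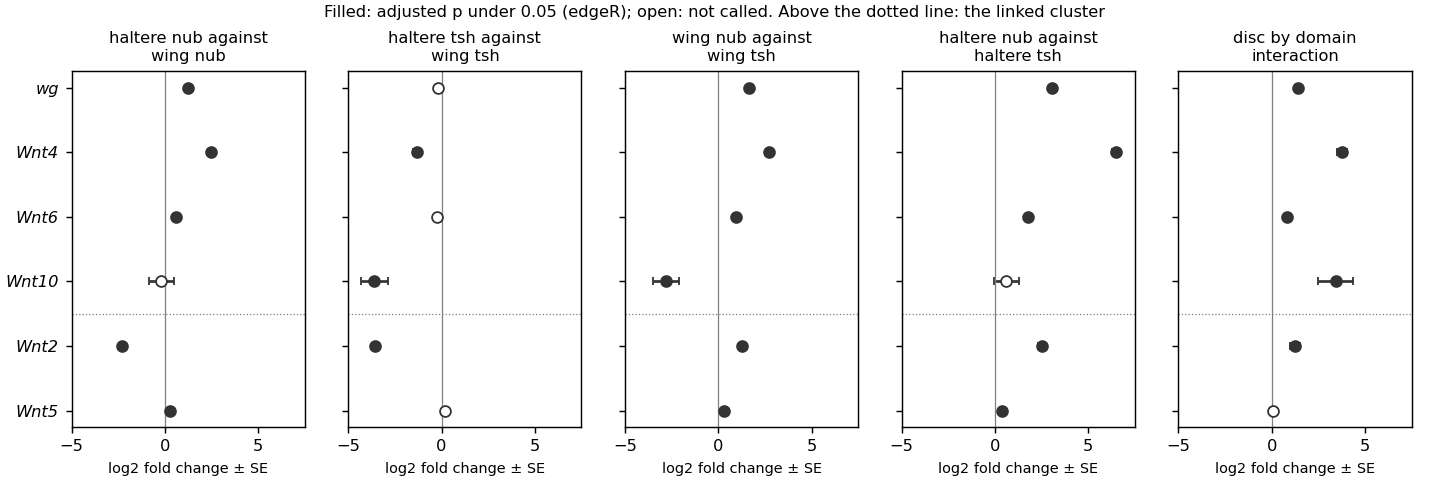
Log2 fold changes of the Wnt ligand genes with their standard errors in 4 comparisons and in the disc by domain interaction, filled where the adjusted p was under 0.05. Wnt4 reaches 6.48 for haltere nub against haltere tsh, Wnt2 lies below 0 in both comparisons of haltere with wing, and Wnt10 has the widest error bars.

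Set side by side, neither the linked genes nor the pair elsewhere moved as one. For haltere nub against wing nub, 4 of the 6 genes were called higher and 1 lower, where 23.3% of all tested genes were called, 9.72% higher and 13.6% lower. The linked genes wg, Wnt4 and Wnt6 were higher and Wnt10 was not called (-0.18 ± 0.65), while Wnt2 was lower and Wnt5 higher. The median log2 fold change of the 6 was 0.42, against -0.01 over all tested genes. Markers of the domains moved in the same comparison. Of 5 proximal genes 4 were higher in haltere nub cells, among them hth (3044 against 2087 CPM) and eyg (67.4 against 13.7 CPM). Of 5 distal genes 3 were lower, among them nub (1037 against 1617 CPM) and vg (198 against 397 CPM), and nab was higher (441 against 278 CPM). Their part in the ligand levels was not tested.

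For haltere tsh against wing tsh, no gene of the 6 was higher and 3 were lower (Wnt4, Wnt10 and Wnt2), with 3.26% of all tested genes called, 1.04% higher and 2.22% lower. Their median was -0.78, against -0.03 over all tested genes. The Wnt4 and Wnt10 calls were lost without haltere tsh replicate 1 (-1.04 and -3.00), while that of Wnt2 held. Counts over all tested genes also moved with single libraries, as given in the last paragraph. For wing nub against wing tsh all 6 were called, 5 higher and Wnt10 lower, beside 13.8% of all tested genes (5.96% higher and 7.88% lower). For haltere nub against haltere tsh 5 were higher and Wnt10 was not called (0.61 ± 0.69, adjusted p = 0.566, edgeR), beside 24.9% of all tested genes (9.96% higher and 15% lower). The medians of the 6 were 2.14 in the haltere disc and 1.10 in that of the wing, against -0.01 over all tested genes in each. These comparisons share groups, so their counts are not independent of each other.

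The remaining pairs of groups served to place the levels in order. For haltere nub against wing tsh, 4 of the 6 were higher and 2 lower (Wnt10 at -3.00 ± 0.66 and Wnt2 at -1.05 ± 0.15), with 22.1% of all tested genes called, 8.81% higher and 13.3% lower. Wnt10 was not called there without haltere nub replicate 1 (-2.71, adjusted p = 0.0895, edgeR) or replicate 2 (-3.14, adjusted p = 0.0608). For wing nub against haltere tsh 4 were higher, led by Wnt2 (4.80 ± 0.20, and 5.40 without haltere tsh replicate 2) and Wnt4 (4.02). Wnt10 (0.80 ± 0.72) and Wnt5 (0.12 ± 0.09) were not called there, and 14.3% of all tested genes were, 6.75% higher and 7.59% lower.

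The size of the disc difference itself differed between the domains. The interaction, which is the haltere over wing change in nub cells minus that in tsh cells, was called in 5 of the 6 genes, all of them above 0, where 15.4% of all tested genes were called (7.32% above 0 and 8.1% below). It was 3.77 ± 0.26 for Wnt4, 1.42 ± 0.18 for wg and 0.83 ± 0.13 for Wnt6. Of these, the haltere was above the wing in nub cells for all, and in tsh cells it was lower for Wnt4 and not called for wg and Wnt6. For Wnt2 it was 1.25 ± 0.26, a drop in the haltere that was smaller in nub than in tsh cells. Without haltere tsh replicate 2 the Wnt2 value was 1.85, still called. Wnt5 had no called interaction (0.08 ± 0.12, adjusted p = 0.69, edgeR). That of Wnt10 (3.42 ± 0.96, adjusted p = 0.0351, edgeR) was not called once haltere tsh replicate 1 or any of the 4 nub libraries was left out (adjusted p between 0.0641 and 0.117), and was 4.59 without haltere tsh replicate 2.

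Ratios of 2 genes within a library need no scaling between libraries, and they show how the other ligand genes moved against wg. Transcript lengths were not used here, so a ratio is read only between groups and not as more RNA of one gene than of another. Wnt4 had 0.501 and 0.429 counts per wg count in haltere nub, 0.0368 and 0.0467 in haltere tsh, 0.183 and 0.211 in wing nub and 0.117 and 0.0695 in wing tsh libraries. Wnt4 thus had the higher ratio to wg where wg itself was high. Wnt6 had 0.268 and 0.225 counts per wg count in haltere nub, 0.666 and 0.528 in haltere tsh, 0.371 and 0.386 in wing nub and 0.665 and 0.546 in wing tsh libraries. The Wnt6 ratio ran the other way and overlapped between the tsh cells of the discs. Wnt2, off the row, had 0.0206 and 0.0183 counts per wg count in haltere nub, 0.0209 and 0.0332 in haltere tsh, 0.212 and 0.233 in wing nub and 0.299 and 0.276 in wing tsh libraries. That ratio separated the discs by more than the domains, with means of 0.0194 in haltere nub, 0.0271 in haltere tsh, 0.223 in wing nub and 0.288 in wing tsh cells. Wnt10, on few counts, had 0.00086 and 0.00101 counts per wg count in haltere nub, 0.00251 and 0.00700 in haltere tsh, 0.00311 and 0.00176 in wing nub and 0.0683 and 0.0411 in wing tsh libraries, and was apart from the rest in wing tsh cells. Mean counts of Wnt5 per wg count were 0.715 in haltere nub, 4.59 in haltere tsh, 1.39 in wing nub and 3.45 in wing tsh cells. These ratios are given without a test.

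**Figure D3:**
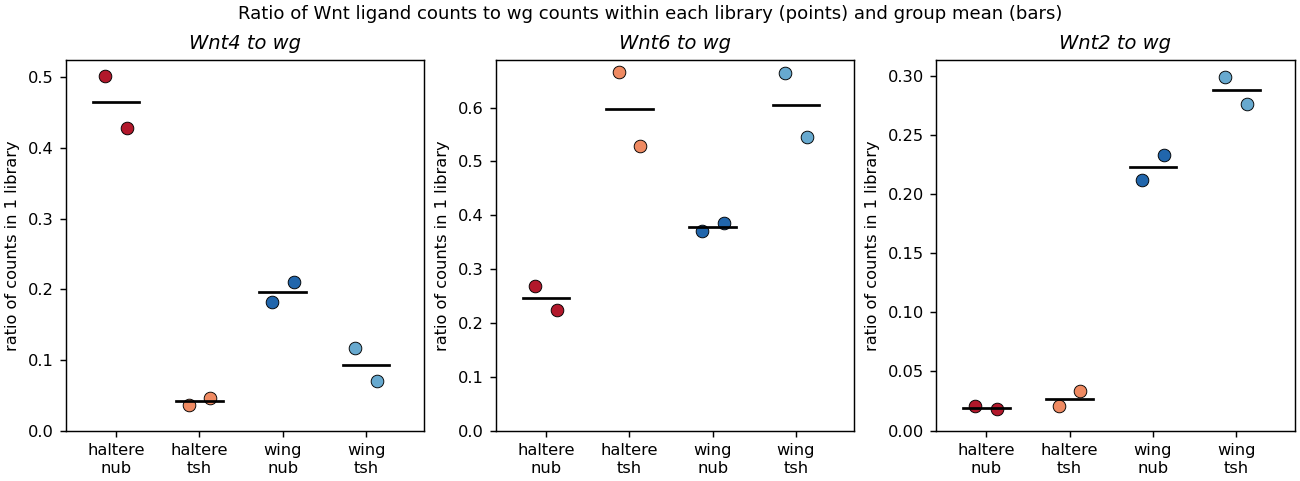
Counts of Wnt4, Wnt6 and Wnt2 per wg count in each library (points, replicates 1 and 2 from left to right) with group means as bars, on linear axes from 0. Wnt4 per wg is highest in haltere nub cells at 0.501 and 0.429, Wnt6 per wg is lowest there at 0.268 and 0.225, and Wnt2 per wg separates haltere from wing.

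The genes around the row were described in turn, to see whether the whole stretch of 2L moved. Within 50 kb of it the annotation lists 25 further genes, of which 17 passed the filter on low counts. In the comparison of haltere nub with wing nub cells 3 of these were called, beside 23.3% of all tested genes. They were CG5171 (1.21 ± 0.38) and chm (0.24 ± 0.08), both higher, and mEFG1 (-0.75 ± 0.14). For haltere tsh against wing tsh CG5181 was higher (0.81 ± 0.12) and ninaC lower, beside 3.26% of all tested genes, and for wing nub against wing tsh ninaC alone was called, beside 13.8%. CG31909 was higher for haltere nub against haltere tsh, and mEFG1 (-0.54 ± 0.14), CG5149 (-0.48 ± 0.10) and CG5181 (-0.47 ± 0.11) were lower, beside 24.9%. The median log2 fold change of the 17 was 0.48 for haltere nub against wing nub (-0.01 over all tested genes). It was 0.43 for haltere nub against haltere tsh (-0.01) and 0.79 for the interaction (0.01). For haltere tsh against wing tsh it was -0.14 (-0.03), and for wing nub against wing tsh -0.36 (-0.01). Several of the 17 had few reads, some of them uneven between wing tsh replicates 1 and 2. Counts in those libraries were 164 and 1 for Ndae1, 49 and 1 for gudu, 32 and 0 for CG13786 and 55 and 12 for CG5160. The medians that involve wing tsh cells, that of the interaction among them, include these values. A shift of the stretch as a whole was not tested.

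The counts of neighbours called move with single libraries, up and down, as do those over all tested genes, whose ranges are given in the last paragraph. Leaving out any 1 library of the haltere nub, haltere tsh or wing nub groups gave 1 call for haltere nub against wing nub, leaving out either wing tsh library gave 5. Within the haltere disc 0 were called by edgeR without haltere tsh replicate 1 or either haltere nub library (4 or 5 at an unadjusted p under 0.05, with no other tool run on those libraries), 3 were called without haltere tsh replicate 2, 5 without wing nub replicate 2, and 8 without either wing tsh library. Without wing tsh replicate 2, 6 were called for haltere tsh against wing tsh and 6 for wing nub against wing tsh, and for wing nub against wing tsh 2 were called without wing tsh replicate 1 or wing nub replicate 1. Between Wnt4 and wg no gene is annotated, and between wg and Wnt6 there is lncRNA:CR45304, which stood at 1.38 CPM or less in every library and was not called in these comparisons.

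A pair of genes at the Wnt4 end were highest in haltere nub cells, as Wnt4 was. CG31909, annotated inside the Wnt4 span, had 214 and 226 counts in haltere nub, 2 and 1 in haltere tsh, 4 and 10 in wing nub and 9 and 1 in wing tsh libraries. It was called higher in haltere nub than in haltere tsh cells (4.59 ± 1.10, adjusted p = 0.00965, edgeR), a call that was lost without any 1 of these 4 libraries (adjusted p between 0.0596 and 0.0839). CG13786, the next gene outward, stood at 4.89 and 5.21 CPM in haltere nub, 0.592 and 0.114 CPM in haltere tsh, 0.293 and 0.451 CPM in wing nub and 1.96 and 0 CPM in wing tsh libraries. It was not called for haltere nub against wing nub (3.75 ± 1.33, adjusted p = 0.0809, edgeR). Strand was not given in the sources used here, so reads of overlapping genes cannot be told apart. 

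At the other end ninaC, a myosin gene known from photoreceptors, lies 173 bases beyond Wnt10 in the annotation. Its levels were 5.78 and 5.80 CPM in haltere nub, 3.62 and 4.56 CPM in haltere tsh, 3.99 and 4.28 CPM in wing nub and 14.3 and 11.3 CPM in wing tsh libraries. Its highest libraries, like those of Wnt10, were from wing tsh cells. It was lower in haltere tsh than in wing tsh cells (-1.64 ± 0.21, adjusted p = 0.000908, edgeR) and lower in wing nub than in wing tsh cells (-1.63 ± 0.21, adjusted p = 0.000248). An antisense RNA annotated inside Wnt10, asRNA:CR44063, had 5 and 0 counts in haltere nub, 0 in all haltere tsh and wing nub libraries, and 9 and 5 in wing tsh libraries, and reads from it cannot be told apart from those of Wnt10.

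**Figure D4:**
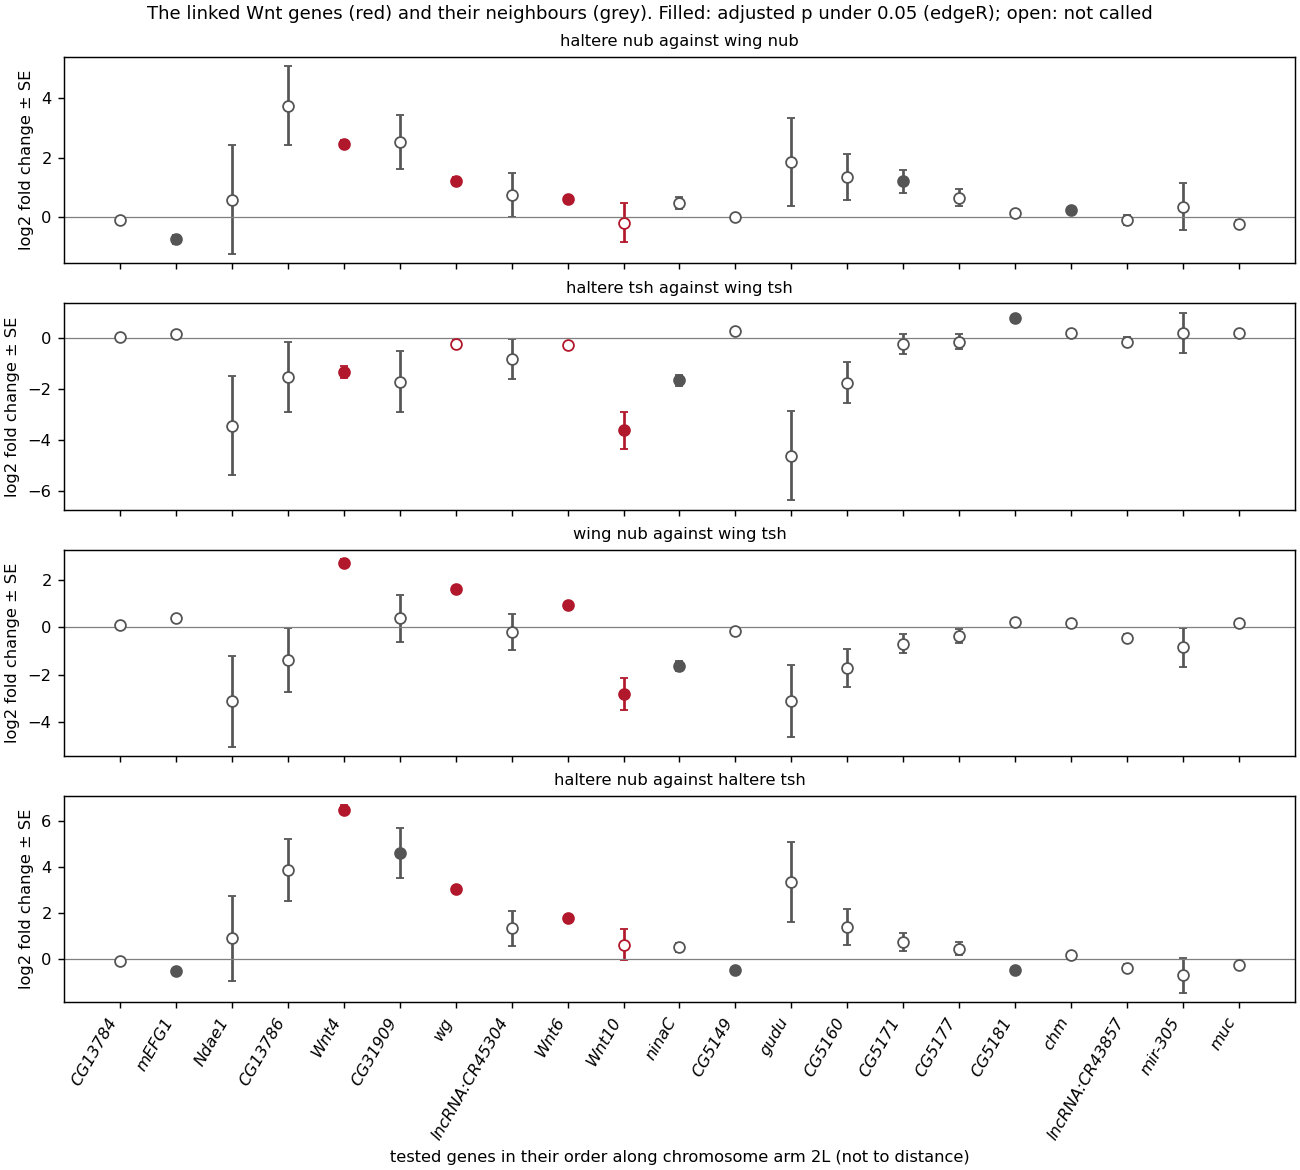
Log2 fold changes with standard errors of the 21 tested genes along the stretch of 2L that holds the linked Wnt genes (red) and their neighbours (grey), in gene order and not to distance, filled where the adjusted p was under 0.05. Around wg, Wnt4 and Wnt6 most neighbours lie near 0 or have wide error bars, and ninaC, next to Wnt10, is at -1.64 for haltere tsh against wing tsh.

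Genes whose levels were most like those of each ligand over the 8 libraries were found by Pearson's r of log2 CPM among 4976 named genes of at least 5 CPM on average. The libraries form 4 groups of 2, so r reflects mostly 4 group levels, and it is given as a description. For wg these were Hsp70Ba (r = 0.996), bi (0.991) and tey (0.991). The gene bi encodes a T-box factor of the pouch, and Hsp70Ba, a heat shock gene, has near-identical copies that make its counts uncertain. For Wnt4 they were trn (0.996), dsx-c73A (0.992) and Hsp70Ba (0.991), and for Wnt6 trn (0.992), Opbp (0.987) and tey (0.987). The leucine-rich repeat gene trn thus came first for both. Wnt10 was most like melt (0.933), its neighbour ninaC (0.925) and Mrp5 (0.916). Wnt2 was most like l(2)k05911 (0.985), klu (0.979) and Pop4 (0.977), and Wnt5 like Toll-7 (0.991), Cdc7 (0.976) and nw (0.974).

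Other Wnt pathway genes were set beside the ligands, from a list of 29 of which 28 passed the filter. The one left out was wntD, a further ligand gene, with 2 and 5 counts in haltere nub, 1 and 0 in haltere tsh, 0 and 2 in wing nub and 21 and 0 in wing tsh libraries. Its 21 counts were in wing tsh replicate 1, where low genes were raised. Of the 28 genes, 5 were higher and 9 lower for haltere nub against wing nub, 1 and 1 for haltere tsh against wing tsh, 5 and 1 for wing nub against wing tsh, and 8 and 7 for haltere nub against haltere tsh. In the same order 23.3%, 3.26%, 13.8% and 24.9% of all tested genes were called. Median log2 fold changes were -0.04, 0.05, 0.00 and 0.00, against -0.01, -0.03, -0.01 and -0.01 over all tested genes.

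The counts rose and fell with single libraries, as did those over all tested genes, whose ranges are given in the last paragraph. Those for haltere nub against wing nub, 14 with all libraries, ran from 9 without haltere nub replicate 2 to 17 without wing tsh replicate 1. Those for haltere nub against haltere tsh, 15 with all, ran from 9 without haltere tsh replicate 1 to 18 without either wing tsh library, and haltere nub replicate 1 left out gave 10. For haltere tsh against wing tsh, 2 with all, 1 was called without either haltere tsh library, 4 without wing tsh replicate 1 and 5 without replicate 2. For wing nub against wing tsh, 6 with all, the count was 5 without wing nub replicate 1, 9 without wing tsh replicate 1 and 11 without replicate 2.

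For making and releasing ligand, wls, the gene of Wntless, was not called in any of these comparisons. The acyltransferase gene por was called lower in haltere nub than in haltere tsh cells (-0.59 ± 0.18), but not without haltere tsh replicate 1 (-0.25), haltere nub replicate 1 (-0.42) or replicate 2 (-0.59) or wing nub replicate 2 (-0.50), nor under upper-quartile scaling (-0.47) or with the gene span trend removed (-0.52). Swim, the gene of an extracellular Wnt carrier, was higher in haltere nub than in wing nub cells (2.30 ± 0.29), at 8.80 ± 1.33 CPM against 1.78 ± 0.213 CPM.

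Among receptors, fz2 is known to be repressed by Wg signalling and fz3 to be raised by it. The level of fz2 was 536 ± 14.4 CPM in haltere nub, 2426 ± 5.89 in haltere tsh, 1092 ± 5.09 in wing nub and 2308 ± 270.3 CPM in wing tsh cells. Its order across the nub groups was the reverse of that of wg, with haltere nub below wing nub cells (-1.03 ± 0.10, adjusted p = 2.76e-05, edgeR). Nub cells had more fz3 RNA than tsh cells in the haltere (1.19 ± 0.11) and in the wing (1.15 ± 0.11). For haltere nub against wing nub cells the fz3 value was below 0 and not called (-0.27 ± 0.10, adjusted p = 0.0808, edgeR). The co-receptor gene arr was lower in haltere nub than in wing nub cells (-0.78 ± 0.09) and fz higher (0.63 ± 0.09).

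Notum and nkd encode feedback inhibitors that Wg signalling is known to raise. Notum stood at 861 ± 50.8 CPM in haltere nub, 178 ± 3.96 in haltere tsh, 404 ± 3.50 in wing nub and 134 ± 6.17 CPM in wing tsh cells. The haltere had more Notum RNA than the wing both in nub cells (1.09 ± 0.08) and in tsh cells (0.42 ± 0.08, adjusted p = 0.02, edgeR). The tsh call was lost without haltere tsh replicate 1 (0.44, adjusted p = 0.139) or replicate 2 (0.39, adjusted p = 0.151). The gene nkd stood at 1540 ± 33.5, 449 ± 1.71, 1145 ± 25.9 and 381 ± 34.9 CPM in the same order of groups, and it too was higher in haltere nub than in wing nub cells (0.43 ± 0.09). That call was lost once a trend with gene span was removed (0.24, adjusted p = 0.0684, edgeR).

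Glypican genes, whose products hold Wnt proteins at the cell surface, were lower in haltere nub than in wing nub cells, at -0.46 ± 0.10 for dally and -0.43 ± 0.09 for dlp. The glypican gene dlp was also lower in haltere tsh than in wing tsh cells (-0.69 ± 0.09, adjusted p = 0.00106, edgeR). Sulf1, a sulfatase gene that edits their sugar chains, was lower in haltere nub than in wing nub cells (-0.36 ± 0.09). These nub calls were lost without single libraries, that of dally without replicate 2 of either nub group (-0.31 and -0.32), that of dlp with haltere nub replicate 2 (-0.28) or wing nub replicate 1 (-0.36) left out, and that of Sulf1 without any of the 4 nub libraries (-0.26 to -0.35). Among destruction complex and transducer genes arm was lower there (-0.55 ± 0.09), while Axn, Apc, Apc2, sgg, dsh, pan, lgs and pygo were not called. For the Ryk and Ror receptors, drl, the Wnt5 receptor gene, was lower (-1.13 ± 0.09), as were dnt (-0.41 ± 0.10) and otk (-0.26 ± 0.08), and Ror was higher (1.04 ± 0.18). The dnt call was lost without either haltere nub library or wing nub replicate 1 (-0.24 to -0.40), and the otk call without any nub or haltere tsh library, under upper-quartile scaling and with no filter on low counts (-0.17 to -0.26). The level of drl was 334 ± 23.3 CPM for haltere nub and 731 ± 5.34 CPM for wing nub cells, and that of Wnt5 was 518 ± 4.27 and 433 ± 6.90 CPM (SD, n = 2 each).

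**Figure D5:**
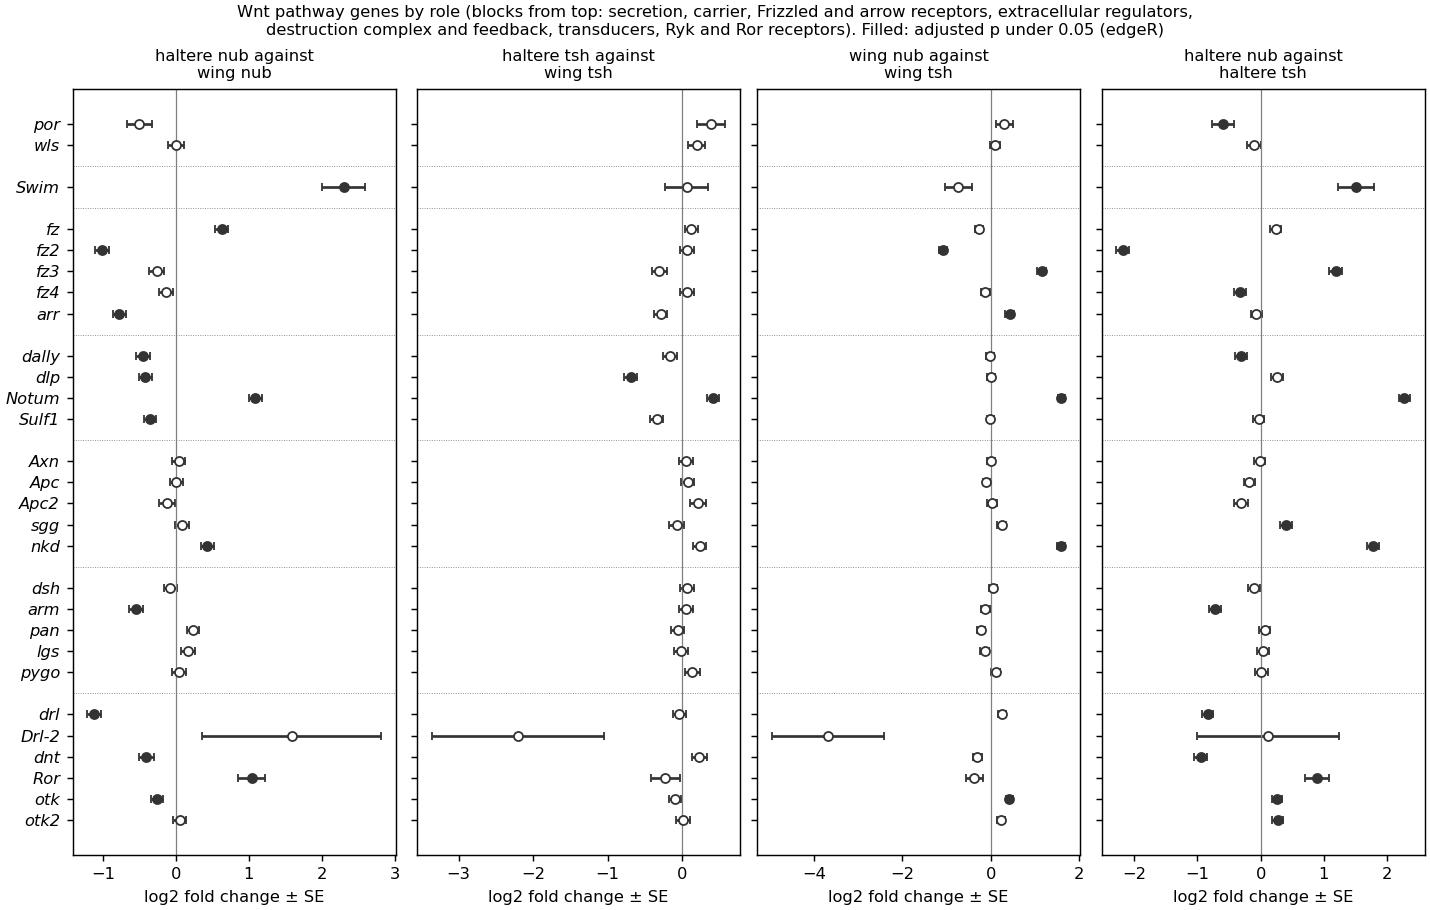
Log2 fold changes with standard errors of the 28 tested Wnt pathway genes in 4 comparisons, grouped by role and filled where the adjusted p was under 0.05, with axes that differ between panels. For haltere nub against wing nub, Swim (2.30) and Notum (1.09) lie to the right and drl (-1.13) and fz2 (-1.03) to the left, while for haltere tsh against wing tsh only Notum and dlp are filled.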

How the data were processed

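RNA was measured in 8 libraries of sorted disc cells, in 4 groups of 2 assigned from the labels. Of the 36 samples, 17 of ATAC-seq and 11 of ChIP-seq were not used here. The deposited values are raw read counts per FlyBase gene, which the authors made from total RNA extracted with TRIZOL and a Nugen Ovation Drosophila library, per the labels' protocols. Per the submitters' processing notes, the series as a whole used HISAT2, Bowtie2, bcl2fastq and deepTools with build dm6, and no role is assigned to them. Which tool counted reads, on what annotation and whether by strand is not given in the sources used here. Of 17807 IDs, 17710 matched a symbol. Names and spans come from RefSeq tables of Release 6. Promoter motifs and levels per exon length, both planned, were not computed, as sequences and exon lengths were not used here.

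Genes were kept by filterByExpr (11198 kept), scaled by TMM and tested with edgeR 4.0.16 in R 4.3.3, with a quasi-likelihood model of the 4 groups with robust dispersions and 4 residual degrees of freedom. Tests were two-sided, with Benjamini-Hochberg adjustment over all tested genes and a threshold of 0.05. The code was tested on simulated data. The SE of a log2 fold change is its unshrunk estimate, in absolute value, divided by the square root of the test's F statistic. The log2 fold changes printed are the slightly shrunken ones of edgeR, so at low counts value and SE belong to different estimates. CPM values are given as mean ± SD over 2 libraries. A single read equalled between 0.0104 and 0.0662 CPM. Nothing says that replicates came from separate cultures, and p-values then cover only the spread between these libraries, possibly technical. Alternatives were 2 other scalings, DESeq2 1.42.0, 2 other filters, fits of the compared groups alone, a replicate block, removal of a gene span trend and leaving out each library.

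The members and lists were chosen with earlier results of these data known. Genes named are the members, a Wnt pathway list, neighbours within 50 kb of the linked genes, markers of other cells, and the 3 genes most like each member.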

Additional observations from a re-analysis of the deposited data

Results flagged for a closer look

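The change from wing to haltere differed between nub and tsh cells, by the interaction term of the edgeR model, in 5 of the 6 Wnt ligand genes. Over all tested genes 15.4% were called for this term, 7.32% above 0 and 8.1% below. The log2 difference between the haltere over wing change in nub cells and that in tsh cells was 3.77 for Wnt4 (adjusted p = 1.28e-05), 1.42 for wg (adjusted p = 0.000658) and 0.83 for Wnt6 (adjusted p = 0.00185). It was 1.25 for Wnt2 (adjusted p = 0.00897) and 3.42 for Wnt10 (adjusted p = 0.0351). The Wnt10 value rests on 3 and 12 counts in haltere tsh libraries, and ran from 2.81 to 4.59 over the alternatives. Its call was lost with the replicate block and in several fits that left out a single library. Depth moved with the interaction results, since the haltere nub libraries were on average 5.65 times as deep as the others. The part of depth was not tested. No test for an outlying library within a group was run, since each group holds 2.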

How the results depend on the processing

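In the main fit 34 of 42 tests of a member gene were called, counting 6 pairs of groups and the interaction. Over all tested genes, the share called ran from 3.26% (haltere tsh against wing tsh) to 24.9% (haltere nub against haltere tsh). These comparisons share groups, so the 42 tests are not independent of each other. Of the 34 called, 26 were also called under every one of 16 alternatives (15 for the interaction). The exceptions were tests of Wnt5, Wnt10 and, between tsh cells, Wnt4. Calls of wg, Wnt6 and Wnt2 all held. With single libraries left out, the members called for haltere tsh against wing tsh numbered between 1 and 4 (3 with all libraries). Of values that were not called, that of Wnt10 for haltere nub against wing nub (-0.18) ran from -0.53 to 0.43 with a library left out, and was 0.10 without haltere nub replicate 1 and 0.43 without wing nub replicate 1. With a library left out the Wnt5 interaction (0.08) ran from -0.0046, without wing tsh replicate 2, to 0.17, and over all alternatives it reached 0.22. The cause was not tested.

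With the replicate block, 4 members in place of 5 were called for haltere nub against wing nub, where Wnt5 was lost (adjusted p = 0.0532), and 4 in place of 5 for the interaction, where Wnt10 was lost (adjusted p = 0.0578). Over all genes the interaction count was 1562 with the block and 1727 without. Deviations of same-numbered libraries from their group means correlated across genes between -0.32 and 0.11 over pairs of groups, so the numbers were not taken to pair the samples. Without a filter on low counts Wnt5 was not called for haltere nub against wing nub (adjusted p = 0.202) or wing nub against wing tsh (adjusted p = 0.0728), nor for wing nub against wing tsh when only those 4 libraries were fitted (adjusted p = 0.178). Without wing tsh replicate 2 it was called for haltere tsh against wing tsh (0.26, adjusted p = 0.0469). All by edgeR.

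Upper-quartile scaling moved the median log2 fold change of all tested genes to 0.12 for haltere nub against haltere tsh (-0.01 under TMM) and to 0.15 for the interaction (0.01 under TMM). Counts over all tested genes moved more than those of members. For haltere tsh against wing tsh 365 genes were called, 720 with DESeq2, 231 with these 4 libraries alone and between 177 and 1621 with a library left out. The 4-library fit gave 3952 in place of 2614 for haltere nub against wing nub and 907 in place of 1549 for wing nub against wing tsh. With a library left out these ran from 1269 to 3664 and from 905 to 2718, those for haltere nub against haltere tsh from 1456 to 3737 (2790 with all) and those for the interaction from 688 to 3400. Depth limits Wnt10, with 3 counts in one library, and Wnt2 and Wnt4 in haltere tsh cells.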
